A study of Arabidopsis thaliana with 24 samples.

Results

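The regions described are binding peaks of bZIP68 that the authors annotated to a promoter but that begin downstream of the transcription start of the assigned gene. They are the rows of the larger of the authors' 2 peak lists whose annotation reads promoter, whose distance to the start is above 0 and which lie on the nuclear chromosomes of Arabidopsis thaliana. The rule kept 1199 of the 5734 nuclear peaks (20.9%), and these were assigned to 1167 genes. The distance runs from the start to the nearest edge of the peak, so a peak that touches the start has a distance of 0 and is not among them. In this annotation the word promoter covers any peak up to 3000 bp from a start on either side, and a downstream peak therefore lies inside or past the gene it is assigned to.

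The study asked how bZIP68 balances stress tolerance with growth, per its title. ChIP-seq, the sequencing of DNA that precipitates with a protein, was done with a FLAG antibody on whole 8-day seedlings that express bZIP68-FLAG, or GFP-FLAG as the control, with 3 samples of each. RNA-seq used whole seedlings at 14 days, wild type (wt) or bzip68 mutant, that were sprayed with 0.01% Triton X-100 alone (mock) or with 5 mM hydrogen peroxide in the same detergent (H2O2), with 3 samples in each of the 4 groups. All of these plants grew in long days on plates with sucrose, under light of 125 µmol, and the seedlings kept at 30 µmol are not analysed here. The mutant allele, the promoter of the FLAG constructs, the background of the FLAG plants and the time from spray to harvest are not stated in the labels. Age and treatment differ between the ChIP and RNA plants.

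Basic leucine zipper (bZIP) proteins bind DNA as dimers, and those of group G, to which bZIP68 belongs, recognise the G-box CACGTG and related sequences with an ACGT core. Plant transcription factors are mostly studied at sites upstream of the start, where they act on the assembly of the transcription machinery. ChIP-seq peaks inside genes are reported for many plant factors as well, and the peak gives the place of the protein, not its effect on the gene.

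The G-box with its neighbours is shown for the 8 highest-scoring peaks that hold one within 300 bp around the peak centre, because they show the motif inside transcribed sequence. Each run of 30 bases is read 5′ to 3′ on the strand of the gene, with the G-box in capitals and the gene, its position on TAIR10.1 and its strand before the colon.
AT1G15670, chr1:5390541-5390570, plus strand: cttcttgacctcCACGTGgcgcgtcgggaa
LOB (AT5G63090), chr5:25309037-25309066, minus strand: atgaggccgaggCACGTGtccgtgaccccg
CYP86A8 (AT2G45970), chr2:18913120-18913149, minus strand: ttctggttgagaCACGTGgcgatgatgtgg
NST1 (AT2G46770), chr2:19221088-19221117, minus strand: gtcaatgagagcCACGTGggccatgatcat
F8H (AT5G22940), chr5:7678787-7678816, plus strand: agaaggagacgcCACGTGgcatattctcga
IPT5 (AT5G19040), chr5:6362292-6362321, minus strand: ccataatagtgcCACGTGgcgagattggtc
IDD12 (AT4G02670), chr4:1176377-1176406, minus strand: tgggtttacgtcCACGTGgcagaaagctga
GLK2 (AT5G44190), chr5:17799738-17799767, plus strand: ggctatcctccaCACGTGgcaccaatgcat

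In 7 of these 8 genes the motif lay in coding sequence and in IPT5 in the 3′ UTR. It was 603 bp downstream of the start in AT1G15670, 1921 bp in LOB, 1604 bp in CYP86A8, 1813 bp in NST1, 1863 bp in F8H, 1106 bp in IPT5, 2097 bp in IDD12 and 1383 bp in GLK2. From the peak centre it was between 6 bp (F8H) and 111 bp (AT1G15670) away. The genes code for proteins of unlike roles. AT1G15670 is a Kelch-repeat F-box protein, LOB is the founding lateral organ boundaries factor, CYP86A8 a cytochrome P450 that hydroxylates fatty acids, and NST1 a NAC factor that switches on secondary cell walls. F8H is a glucuronosyltransferase of xylan synthesis, IPT5 makes cytokinin, IDD12 is a zinc finger factor of the INDETERMINATE DOMAIN family, and GLK2 promotes chloroplast development.

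Peaks were compared by score, which is the authors' own value per peak, -10 times the log10 of the p-value against GFP-FLAG. A higher score means stronger evidence for an excess of reads, and it is not the size of that excess. Over the 1199 downstream peaks it ran from 52.76 to 2258.7 with a median of 135.8. The 3272 peaks that cover a start had a median of 157.54, those 1 to 1000 bp upstream 141.92, those farther upstream 140.44, and those outside promoters 130.43. A score of at least 300 was reached by 226 downstream peaks (18.8%) and by 21.9% of the peaks that cover a start. The lists hold 1 value per peak and no value per sample, and whether replicates were pooled is not stated, so these values have no replicate error and were not tested.

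The highest score, 2258.7, belonged to a 1360 bp peak that starts 35 bp into AT1G15670 (chromosome 1, 5389987 to 5391346) and spans nearly the whole 1539 bp transcript. LOB (1736.08), AT1G05370, a Sec14-like phosphatidylinositol transfer protein (1724.11), CYP86A8 (1426.47), NST1 (1422.37) and F8H (1368.82) followed with broad peaks centred on coding sequence. WAVH1, a RING protein of the WAVY GROWTH family (1289.12), the kinase gene AT1G69910 (1275.51) and the RING gene AT3G27330 (1129.6) were also centred on coding sequence, and they and AT1G05370 held a G-box in the peak but outside the 300 bp window. IPT5 (1129.62) was centred on its 3′ UTR. The other two of the highest 12 differed in kind. SDR2, a short-chain dehydrogenase, had 1817.95 over 137 bp that straddle its 3′ end, with 39 bases inside the gene, and the 5.8S ribosomal RNA gene AT3G41979 had 1170.5 over 1 bp, 1072 bp from its start.

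Very narrow rows made up a small set. Of the downstream peaks 47 (3.92%) were narrower than 100 bp, against 3 (0.0917%) of the peaks that cover a start, 2.71% of those 1 to 1000 bp upstream, 1.66% of those farther upstream and 4.0% of those outside promoters. The median width was 914 bp for downstream peaks and 1005 bp for peaks that cover a start. In 43 downstream rows the score was identical to that of another row within 10000 bp on the same chromosome, with a median gap of 962 bp between the rows. In 10 of them the other row covered a start and in 24 it was another downstream row. The SDR2 row shares its 1817.95 with a row that covers the SDR2 start 876 bp away. Whether such rows are pieces of 1 peak was not tested. Without them 1156 peaks were left, of which 329 held a G-box.

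AT1G15670 belongs to the KMD family of Kelch F-box proteins, which bring type-B cytokinin response regulators to degradation. Its relatives AT1G80440 (score 928.52, 72 bp from the start) and AT3G59940 (322.75, 10 bp) had downstream peaks too, and were looked up after the first had been seen. The AT1G80440 peak is 2865 bp wide over a transcript of 1465 bp and is centred past the 3′ end. That of AT3G59940 is 2147 bp wide over 1540 bp and centred in coding sequence.

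Nearest and farthest members show where the rule divides peaks. PAP9, a purple acid phosphatase, and the RING gene AT2G42360 had peaks that begin 1 bp from the start, with scores of 118.13 and 220.02. Just outside were peaks at AT5G03700 (156.02) and AT4G13580 (314.86) that touch the start with no base upstream of it. At the far side ARF6, an auxin response factor, had a peak at 2977 bp (score 101.07) and AT3G52500, an aspartyl protease, at 2963 bp (254.35), while AT2G41460 at 3005 bp (195.61) already counted as outside promoters.

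Peaks were crowded near the start and thinned out with distance. The distance had a median of 780 bp, and its quartiles were 317 and 1461.5 bp.
Within 250 bp of the start began 257 peaks (21.4%), from 251 to 500 bp 166, from 501 to 1000 bp 282, from 1001 to 2000 bp 349, and from 2001 to 3000 bp 145. Over these bins the median score fell from 160.27 to 147.43, 136.43, 128.46 and 117.05, a description with no test. All 5 nuclear chromosomes held downstream peaks, from 179 on chromosome 4 to 300 on chromosome 1.

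**Figure D1:**
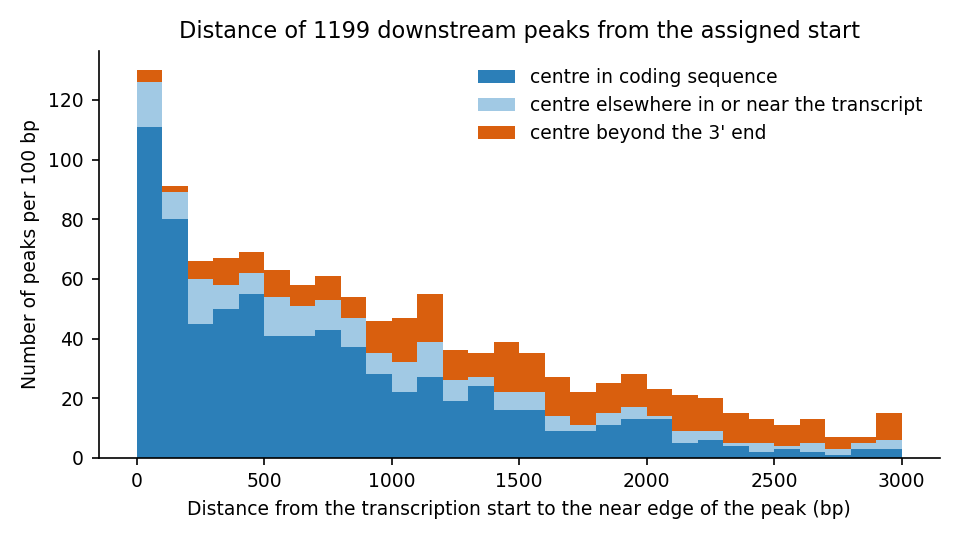
Number of downstream peaks per 100 bp (y axis) against the distance from the assigned start to the near edge of the peak in bp (x axis), coloured by what lies at the peak centre. Peaks are densest close to the start, and the part whose centre lies beyond the 3′ end grows from 3.11% of peaks at 1 to 250 bp to 55.2% at 2001 to 3000 bp. Some growth is fixed in advance, because a peak that begins farther from the start passes the end of more transcripts.

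The centre of most downstream peaks lay in coding sequence. By RefSeq's annotation of TAIR10.1 this held for 739 peaks (61.6%). Introns held 105 centres (8.76%), 3′ UTRs 51 (4.25%), 5′ UTRs 5 and non-coding transcripts 21, and 4 lay outside the RefSeq transcript. The other 274 centres (22.9%) were past the 3′ end of the assigned transcript, and 201 of these peaks lay past the end with their whole length. Coding-centred peaks had the highest median score of the larger groups, 146.89, against 132.81 in introns, 125.44 past the end and 123.51 in 3′ UTRs.

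Inside the transcript the centres leaned to its later part. For 925 peaks with a centre inside, the median position was 62.0% of the transcript length. Coverage of the scaled transcript rose from 30.1% of downstream peaks at 25% of its length to 51.4% at 75%, and 610 peaks lay inside the transcript from edge to edge. The rule itself removes every peak that reaches the start, which pushes the remaining centres away from it. In 65 cases the peak covered the RefSeq start of another gene, and in 9 the start of its own gene as RefSeq places it.

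**Figure D2:**
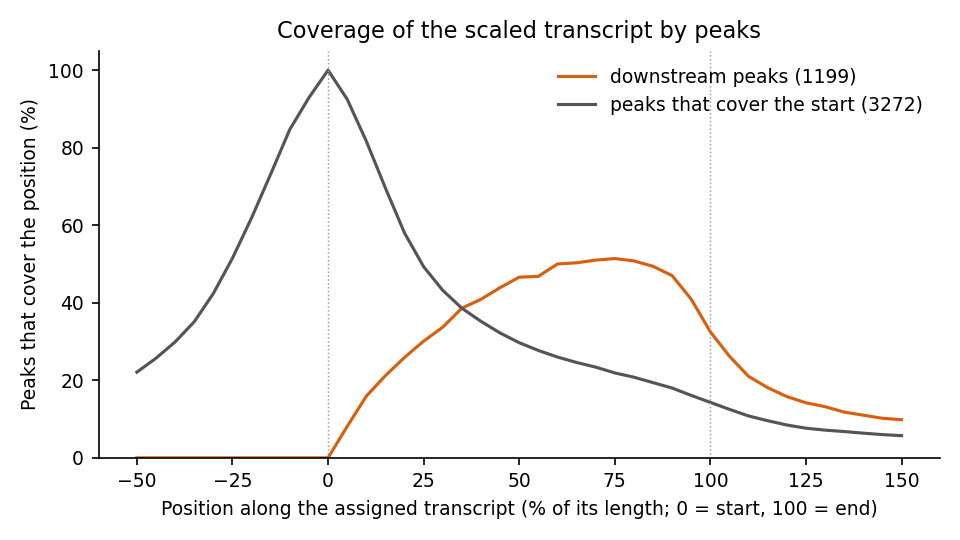
Share of peaks in percent (y axis) that cover each position of the assigned transcript, scaled so that 0 is the start and 100 the end (x axis), for the downstream peaks and for the peaks that cover the start. The downstream peaks reach 51.4% at position 75 and have no coverage at the start by definition, while the other line falls from its top at the start to 14.3% at the end.

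Genes whose peak lay past the 3′ end were short. The rule itself favours this, since a peak must begin within 3000 bp of the start and so cannot lie past the end of a long transcript. Their transcripts had a median length of 1040 bp, against 2032 bp for the other downstream peaks, and the centre was a median of 643 bp past the end. In 94 of the 274 cases the centre lay inside another RefSeq gene, and in 81 the start of another protein-coding gene was within 3000 bp with the centre upstream of it. The peak assigned to COR15B, a cold-regulated chloroplast protein, was centred inside the neighbouring gene AT2G42520, that of RHS13, a root hair gene, inside RSH1, and that of the chloroplast peroxiredoxin 2-Cys Prx B inside LOG7. Which gene such a peak acts on was not tested.

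Among 1112 protein-coding member genes with a coding transcript in RefSeq, 344 (30.9%) had a single exon. The share was 20.6% of all 27444 protein-coding genes and 25.1% of genes with a covered start. The words of RefSeq gene names gave a second description. Names of transcription factor and zinc finger families stood on 122 member genes (11.0%), against 5.67% of genes with a covered start and 6.69% of all protein-coding genes. Kinase names stood on 4.77%, against 5.06% of all, transporter or carrier names on 2.88% against 2.06%, cytochrome P450 names on 1.35% against 0.904%, and ribosomal names on 0.27% against 1.48%. No test was made of these shares, and a name that RefSeq leaves as uncharacterized, such as that of RAV1, is missed.

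A G-box was found in the 300 bp around the centre of 331 downstream peaks (27.6%). CACGTG was searched on both strands, which are the same for this palindrome. The share was 30.6% of peaks that cover a start, 35.4% and 35.1% of the nearer and farther upstream peaks, and 35.0% of peaks outside promoters. Windows of the same length centred at the same median distance of 1274 bp downstream of the start of 27443 protein-coding genes held one in 2.79%, and windows just upstream of the start in 7.08%. So the downstream peaks had the lowest share of the 5 classes, while their place in the gene has a lower share over all genes than the region upstream of the start. These shares were not tested.

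Base composition differed too, and the G-box share was compared within equal composition. Peaks centred in coding sequence had a median GC content of 47.33% and a G-box in 28.0%, and windows of all genes centred in coding sequence had 41.0% GC and a G-box in 2.94%. Within windows of 40 to 45% GC the shares were 19.9% and 2.56%, from 45 to 50% they were 24.5% and 5.49%, and from 50% upward 38.9% and 10.8%. Below 40% they were 30.8%, from 39 peaks, and 1.60%. The member share was the higher one in each of these 4 ranges.

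Other motifs were counted in the same windows, both strands. The core ACGT, which the G-box and the next 2 motifs contain, was in 899 of the 1199 downstream peaks (75%) and 38.5% of the windows of all genes at the same distance. GACGTC was in 7.17% against 1.92%, and TACGTA in 5.84% against 3.58%. AAACCCTA stood in 3.25% against 2.37%, GAGAGAGA in 4.34% against 3.40%, and TGGGCC in 14.5% against 3.76%. Peaks with an ACGT core but no G-box numbered 568. A match describes the letters in a window and does not mark a bound site.

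Higher scores went with more G-boxes. In 4 groups of the downstream peaks by score, with 299 or 300 peaks in each, the share with a G-box was 19.3% in the lowest, then 24.3% and 26.8%, and 120 of 300 in the highest. Over the bins of distance it had no steady order, with 32.7%, 30.7%, 20.6%, 29.2% and 24.8% from nearest to farthest. By the feature at the centre it was 28.0% in coding sequence, 28.8% past the end, 22.9% in introns and 19.6% in 3′ UTRs.

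G-boxes lay close to the centre. Searched over the whole peak, 497 downstream peaks (41.5%) held at least 1 and 158 held 2 or more. The nearest one was within 50 bp of the centre in 158 (31.8%) of the 497, with a median of 88.5 bp, against 30.0% and 104.5 bp in peaks that cover a start. In 50 bp bins next to the centre 7.64% and 7.38% of the spanning peaks had a G-box, and in bins 450 to 500 bp away 0.691% and 1.15%.

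**Figure D3:**
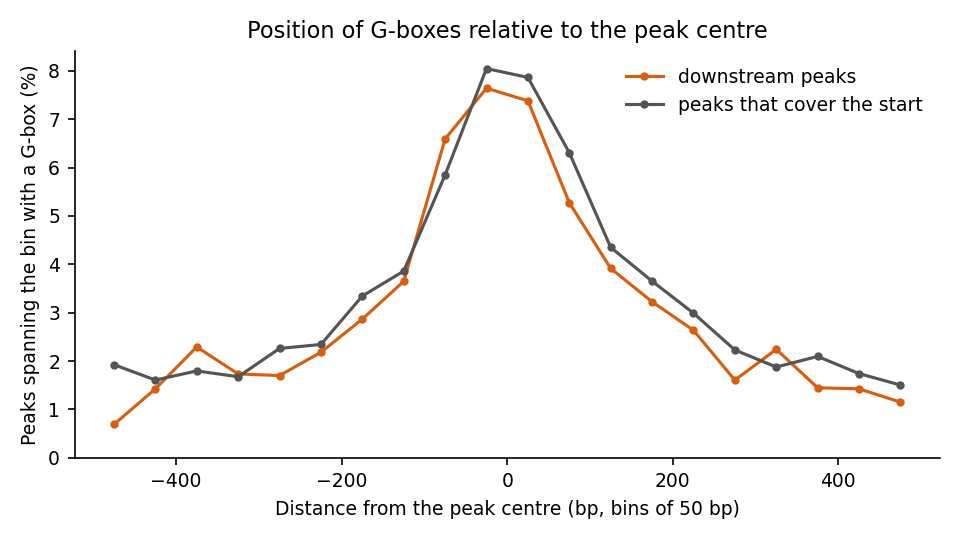
Share of peaks in percent that hold a G-box in each 50 bp bin (y axis), out of the peaks that span the bin, against the distance from the peak centre in bp (x axis), for downstream peaks and peaks that cover the start. Both lines have their top at the centre, at 7.64% and 8.05% in the bin just before it, and lie at 1.73% and 1.68% in the bin from -350 to -300 bp.

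The base before the G-box was C in 42.3% of the 407 G-boxes in downstream windows and in 24.3% of the 844 in windows of all genes, while T was in 11.7% and 28.6%. Within coding exons the 241 G-boxes of downstream peaks began at the first, second and last base of a codon in 36.5%, 34.0% and 29.5%. Across the coding exons of all genes 4204 G-boxes began there in 31.1%, 47.6% and 21.3%, so the order of the codon positions differed between the sets. These shares were not tested.

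The authors' shorter list keeps peaks with an adjusted p under 1e-30 from position -1500 to position 500 around a start. It holds 90 of the downstream peaks, 7.51% of them and 10.0% of that list. Of the 423 downstream peaks that begin within 500 bp, 21.3% are in it, and of the peaks that cover a start 21.2%, so the shares within reach of that window were alike. AT1G15670, IPT5 and AT3G27330 were in it, and LOB, CYP86A8, NST1 and F8H lay too far into the gene. For 984 genes the downstream peak was the only peak of the larger list, 76 genes also had a peak that covers the start, 30 genes had 2 downstream peaks and 1 gene, the non-coding AT3G06433, had 3.
Among genes with a pair of downstream peaks, CKX7, which degrades cytokinin, had adjoining peaks at 220 bp (score 285.75) and 879 bp (363.61). BRG2, a RING gene, had peaks at 724 bp (290.89) and 1749 bp (267.44). LTI78, also called RD29A, a drought and cold gene, had a 1215 bp peak at 104 bp and a 36 bp row at 2693 bp with the same score of 199.88.

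bZIP68 was itself among the genes with a downstream peak. The peak lay on chromosome 1 from 11565955 to 11567202, began 437 bp into the gene, had a score of 522.39, touched 6 of the 13 exons and covered 621 exon bases and 627 intron bases with no G-box. It is among the 43 rows with a shared score, since a row 962 bp away that covers the start of AT1G32160 also has 522.39. That row, from 11568165 to 11568748, begins inside bZIP68, whose own end is at 11568531. The bZIP68-FLAG plants carry an added copy of this gene, and its DNA and the protein's binding to the native gene cannot be told apart here. In the RNA, bZIP68 had 74, 82 and 102 counts in mock wild type and 2, 1 and 1 in mock bzip68, and 87, 93 and 70 against 2, 0 and 2 under H2O2. Each mutant library lay far below each wild-type one, as the labels say. The log2 fold change was -5.84 ± 0.38 (SE) in mock plants (edgeR adjusted p = 2.75e-07) and -5.70 ± 0.38 under H2O2 (edgeR adjusted p = 4.39e-07). The SE was worked back from the edgeR test and is only rough at mutant counts of 0 to 2.

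The RNA libraries held 8997073 to 10262992 counts each. A library of H2O2-sprayed wild type (replicate 2) had 0.0121% of its counts on chloroplast genes, against 1.05% to 1.54% in the other 11. It and replicate 2 of mock bzip68 stood apart on the second principal component (-34.9 and -42.1). The labels do not say that samples of a group are separate cultures, so the p-values measure how far these samples vary, perhaps only by technique. Whole seedlings were sampled, and fewer cells of a type cannot be told apart from less RNA per cell. Of the 1167 genes with a downstream peak 826 (70.8%) were in the authors' count table and 818 passed the filter on low counts and were tested, against 80.6% in the table for genes with a covered start. Genes with their peak past the 3′ end were in the table in 52.1%.

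Genes with a downstream peak that were tested were transcribed at an ordinary level, from values for 812 of the 1167. Genes outside the count table have no level. The median in mock wild type was 8.7 CPM (a count scaled to library size) per kilobase of exon, against 12.2 for genes with a covered start and 9.1 for all genes tested. Those with a G-box in the window had 6.41 and those without 9.75. GLK2 was at 226, 228 and 245 CPM in mock wild type, and CYP86A8 at 72.4, 68.4 and 69.9 CPM. F8H (13.6, 14.4 and 9.32 CPM) and AT1G15670 (17.2, 21.4 and 15.0) were lower, and IPT5 (2.78, 2.01 and 1.78) and LOB (1.71, 2.23 and 2.48) lower still. A high peak score thus did not go with 1 level of RNA.

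In mock plants the mutant differed from the wild type in few genes with a downstream peak. At an adjusted p under 0.05 (edgeR quasi-likelihood, Benjamini-Hochberg over all 18205 genes tested) 3 of 818 (0.367%) changed, against 0.214% of all genes tested, and all 3 were lower, against 0.17%. They were bZIP68, RAV1 and SOBIR1. As bZIP68 is the mutated gene, its call and direction were fixed in advance, which leaves RAV1 and SOBIR1. With so few calls the share is not read as an excess over all genes. An unadjusted p under 0.05 was found for 143 genes (17.5%), against 10.1% of all genes. The downstream genes as a whole did not lean lower. Their median log2 fold change was 0.037, with 456 of 818 above 0, against 0.007 and 9303 of 18205 for all genes tested. DESeq2 called 13, all lower (1.19% of all genes), and limma voom with sample weights 57, 19 higher and 38 lower (4.32% of all). Without replicate 3 of mock wild type edgeR called 9, all lower, and without replicate 1 or 2 of mock wild type or replicate 3 of mock bzip68 it called 1. For these fits without 1 library no share over all genes is given, so their counts have no background beside them.

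RAV1 codes for a transcription factor with AP2 and B3 domains that restrains growth. Its peak (chromosome 1, 4542489 to 4543470, score 199.68) began 321 bp into the gene. RAV1 was at 105, 101 and 75.3 CPM in mock wild type and at 49.4, 47.1 and 46.9 CPM in mock bzip68. The groups did not overlap, and the mutant libraries were nearly alike. The means were 93.6 ± 16.0 and 47.8 ± 1.42 (SD, n = 3), a log2 fold change of -0.97 ± 0.15 (SE; edgeR adjusted p = 0.0157). The adjusted p was 0.107 without replicate 1 of mock wild type, 0.106 without replicate 2 of it, 0.104 without replicate 3 of mock bzip68 and 0.0632 from the fit of these groups alone, and it ran from 2.59e-06 to 0.107 over the alternatives.

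Under H2O2 RAV1 was at 108, 136 and 102 CPM in the wild type and 70.9, 77.2 and 87.1 CPM in bzip68. The groups did not overlap, but the genotype difference did not pass the test there (log2 fold change -0.56 ± 0.15, edgeR adjusted p = 0.241, and 0.0646 to 0.741 over the alternatives). RAV1 rose with H2O2 in bzip68 by 0.71 ± 0.15 on the log2 scale (edgeR adjusted p = 0.00706) and had 0.30 ± 0.15 in the wild type (edgeR adjusted p = 0.242).

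SOBIR1 codes for a receptor kinase that partners receptor-like proteins in defence. Its peak (chromosome 2, 13555743 to 13556921, score 201.67) began 849 bp into the gene and held a G-box near its centre. SOBIR1 was at 94.6, 113 and 77.9 CPM in mock wild type and at 39.7, 61.2 and 52.1 CPM in mock bzip68, without overlap. The means were 95.1 ± 17 and 51.0 ± 11 (SD, n = 3), a log2 fold change of -0.90 ± 0.17 (SE; edgeR adjusted p = 0.0464). The adjusted p was 0.184 or 0.236 without replicate 1 or 2 of mock wild type, 0.11 or 0.24 without replicate 1 or 3 of mock bzip68, and 0.153 from the fit of these groups alone, with a range of 0.000563 to 0.24 over the alternatives.

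Under H2O2 the mutant differed from the wild type in 1 of 818 genes (0.122%), against 0.0714% of all genes, and that gene was bZIP68 itself, which was lower (0.0439% of all genes were lower). An unadjusted p under 0.05 was found for 87 genes (10.6%), against 9.23% of all. The count was 3, all lower, from the fit of these groups alone, 5 in DESeq2 (2 higher, 3 lower), and 2, both lower, without replicate 2 of H2O2 wild type. No share over all genes is given for these alternative fits, so an excess cannot be read from their counts.

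H2O2 changed more of these genes. In the wild type 112 of 818 (13.7%) changed, against 9.74% of all genes tested, with 50 higher (5.02% of all) and 62 lower (4.72% of all). In bzip68 99 changed (12.1%), against 7.39%, with 47 higher (4.11% of all) and 52 lower (3.28% of all). Genes with a covered start had 13.8% and 10.5%, and genes with no peak 8.55% and 6.33%, so the shares of the downstream genes lay with those of genes with a covered start and above those with no peak. The median log2 fold change was -0.02 in the wild type and -0.05 in bzip68, near 0 as over all genes. Members with and without a G-box had 14.3% and 13.4% changed in the wild type. The count for bzip68 was 53 (30 higher, 23 lower) without replicate 3 of H2O2 bzip68 and 57 (28 and 29) without replicate 3 of mock bzip68, and 141 (47 and 94) without replicate 1 of mock bzip68. It was 79 (44 and 35) without replicate 2 of mock bzip68 and 75 (41 and 34) without replicate 1 of H2O2 bzip68. The wild-type count was 77 (29 higher, 48 lower) without replicate 1 of mock wild type, 79 (32 and 47) without replicate 3 of it and 102 (56 and 46) without replicate 2 of it. Which direction held more genes therefore turned with single libraries in both genotypes. Shares over all genes are not given for these refits, so the counts do not set the downstream genes apart from other genes.

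The sets of the genotypes overlapped. Of the 112 and 99 genes 60 were in both sets, 53.6% of the wild-type set and 60.6% of the bzip68 set, all with the same direction. Over all genes tested the sets of 1773 and 1346 shared 863, which is 48.7% and 64.1% of them, also all in the same direction, so the overlap of the downstream genes lay near that of all genes. The mock and H2O2 libraries of the genotypes are separate samples. No gene with a downstream peak passed the test of the difference between the responses, 0 of 818 against 0.0% of all genes in edgeR, and DESeq2 and limma voom called 0 as well. Without replicate 3 of mock wild type edgeR called 1, GSTU9. At an unadjusted p under 0.05 there were 61 (7.46%), against 6.47% of all.

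**Figure D4:**
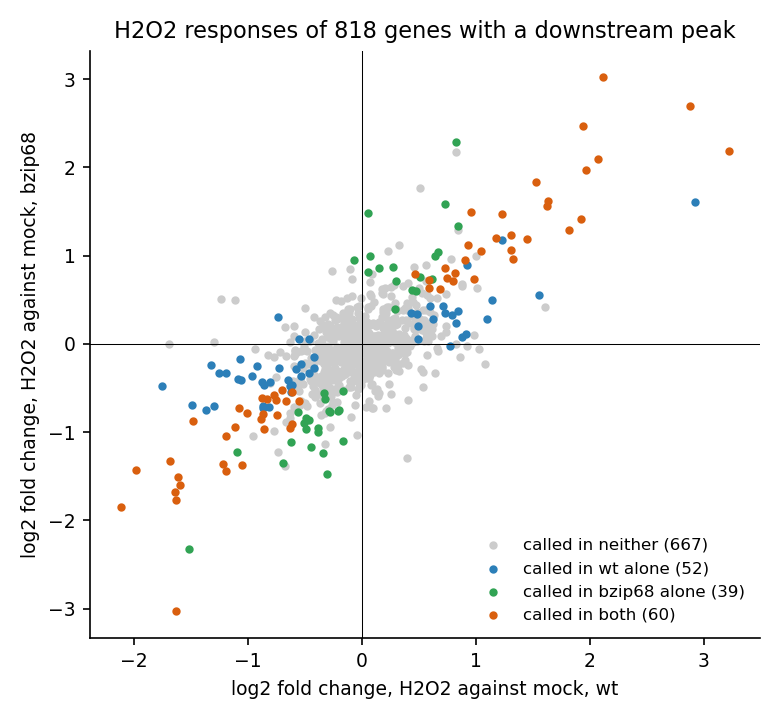
Log2 fold change of H2O2 against mock in bzip68 (y axis) against the same in the wild type (x axis) for 818 genes with a downstream peak, coloured by the genotype in which the gene passed an adjusted p of 0.05. The 60 genes called in both genotypes have the same sign in both, and of the 151 called in either 146 do.

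The H2O2 genes described next were taken from those with a symbol, and they are not the largest changes of all members. Log2 fold changes in wild type and bzip68 were 3.225 and 2.19 for AT2G33830, 2.879 and 2.697 for AT5G62360, and -1.626 and -3.029 for AT1G19900. ABF1, a bZIP factor that binds abscisic acid response elements, rose in both genotypes. It was at 14.3, 14.8 and 13.3 CPM in mock wild type and 42.6, 47.4 and 41.1 under H2O2, and at 19.2, 13.2 and 13.0 and then 49.3, 42.9 and 42.6 in bzip68. The sprayed libraries lay above all mock libraries by a wide gap. The log2 fold changes were 1.63 ± 0.15 (SE; edgeR adjusted p = 3.47e-06) and 1.57 ± 0.15 (edgeR adjusted p = 6.77e-06). Its peak began 892 bp into the gene, with a score of 101.96 and no G-box.

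COR15B, which protects chloroplast membranes in the cold, was at 5.55, 2.23 and 5.06 CPM in mock wild type and 19.0, 22.9 and 14.1 under H2O2. In bzip68 it went from 2.97, 2.69 and 4.23 to 22.3, 21.1 and 37.3. No mock library reached a sprayed one. It rose by 2.11 ± 0.31 (SE, log2; edgeR adjusted p = 0.000498) and 3.02 ± 0.32 (edgeR adjusted p = 4.3e-05), and its peak is the one centred in the neighbouring gene.

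CP29, a chloroplast RNA-binding protein, was at 412, 358 and 277 CPM in mock wild type and 794, 907 and 897 under H2O2, and at 393, 469 and 393 and then 913, 1030 and 998 in bzip68. The sprayed libraries were all above the mock ones. It rose by 1.31 ± 0.15 (SE, log2; edgeR adjusted p = 2.45e-05) and 1.23 ± 0.15 (edgeR adjusted p = 6.13e-05).

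DIN10, a raffinose synthase family gene switched on by darkness and sugar starvation, rose from 378, 452 and 231 CPM to 803, 981 and 872 in the wild type and from 347, 374 and 353 to 560, 725 and 804 in bzip68. The groups did not overlap in either genotype. The log2 fold changes were 1.32 ± 0.20 (SE; edgeR adjusted p = 0.000469) and 0.96 ± 0.20 (edgeR adjusted p = 0.00691), and its peak of score 500.8 began 337 bp into the gene.

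Further rising genes were MMP, a matrix metalloproteinase (1.82 ± 0.28 in the wild type, edgeR adjusted p = 0.000582), CYP710A1, a sterol desaturase (1.45 ± 0.20, edgeR adjusted p = 0.000172) and AIF1, a bHLH protein of brassinosteroid responses (1.23 ± 0.15, edgeR adjusted p = 5.08e-05). In bzip68 they rose by 1.29 ± 0.28 (adjusted p = 0.00943), 1.19 ± 0.20 (adjusted p = 0.0015) and 1.48 ± 0.15 (adjusted p = 1.27e-05), and MMP had 0.0625 without replicate 3 of mock bzip68. GAD4, a glutamate decarboxylase, rose in bzip68 by 1.33 ± 0.28 (edgeR adjusted p = 0.00823) and had 0.84 ± 0.27 in the wild type (edgeR adjusted p = 0.0644).

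AMT1;2 had the largest fall of the named genes in both genotypes. It codes for an ammonium transporter of the root and was at 137, 134 and 174 CPM in mock wild type and 36.2, 32.0 and 34.4 under H2O2, and at 116, 198 and 142 and then 43.6, 44.3 and 39.2 in bzip68. Every sprayed library lay below every mock one. It fell by 2.11 ± 0.18 on the log2 scale (SE; edgeR adjusted p = 1.69e-06) and by 1.84 ± 0.17 (edgeR adjusted p = 6.77e-06), under a peak of score 712.7 that began 550 bp into the gene.

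AMT1;3, its relative, fell by 1.63 ± 0.27 (edgeR adjusted p = 0.00153) and by 1.77 ± 0.27 (edgeR adjusted p = 0.00125), and its downstream row is 81 bp wide and lies in the 3′ UTR. ZIP3, a zinc transporter, fell by 1.59 ± 0.33 (edgeR adjusted p = 0.00467) and by 1.60 ± 0.31 (edgeR adjusted p = 0.00383). RUP2, a repressor of UV-B signalling, went from 54.9, 36.1 and 43.4 CPM to 11.1, 20.2 and 11.8 in the wild type and from 40.8, 82.9 and 53.7 to 15.6, 20.9 and 19.0 in bzip68, again without overlap. It fell by 1.64 ± 0.28 (edgeR adjusted p = 0.00196) and by 1.67 ± 0.28 (edgeR adjusted p = 0.00215).

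**Figure D5:**
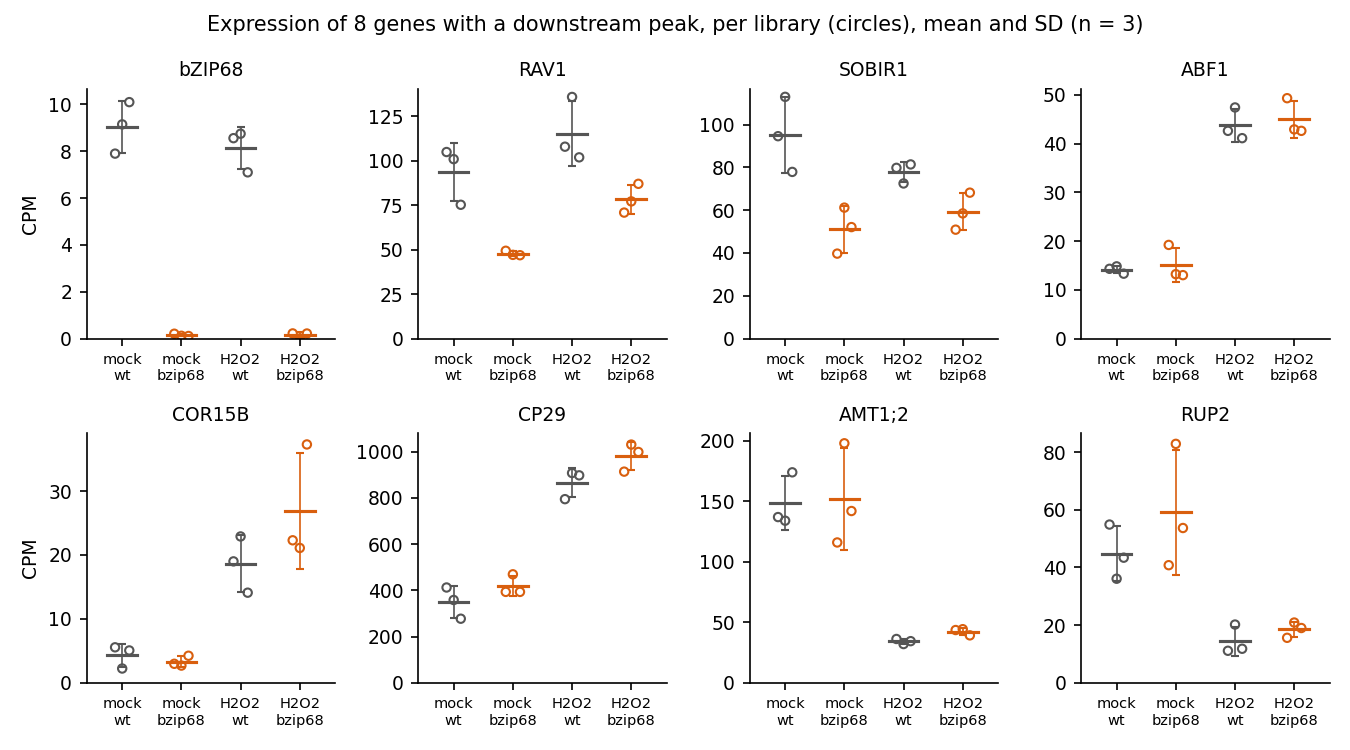
Level in CPM (y axis, from 0) in each library (circles), with the mean and SD of 3 libraries, for 8 genes with a downstream peak in the 4 groups (x axis). ABF1, COR15B and CP29 are higher in every sprayed library than in every mock library of their genotype, and AMT1;2 and RUP2 are lower. bZIP68, RAV1 and SOBIR1 are lower in every mock bzip68 library than in every mock wild-type library.

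GSTU9, a tau-class glutathione transferase, fell in the wild type and missed the threshold in bzip68. It went from 42.5, 55.6 and 19.3 CPM to 11.9, 10.2 and 12.6 in the wild type and from 18.8, 23.3 and 19.0 to 11.3, 12.7 and 19.8 in bzip68, where the groups overlap. It fell by 1.76 ± 0.32 (edgeR adjusted p = 0.00372), and bzip68 had -0.47 ± 0.32 (edgeR adjusted p = 0.49). The difference between them was 1.28 ± 0.45 and did not pass the test (edgeR adjusted p = 0.722), while without replicate 3 of mock wild type, the library at 19.3 CPM, it was 1.61 ± 0.29 and passed (edgeR adjusted p = 0.0474). The wild-type p was 0.0519 from the fit of these groups alone and 0.052 without the 2 libraries that stand apart, within a range of 3.68e-07 to 0.052. The near edge of the GSTU9 peak is 1113 bp past the end of the gene.

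GA3OX2, an enzyme of gibberellin synthesis, was at 5.44, 6.25 and 7.54 CPM in mock wild type and 2.26, 2.35 and 2.23 under H2O2, and at 4.72, 6.55 and 6.93 and then 3.93, 4.57 and 2.78 in bzip68. It did not overlap between sprays in either genotype, fell by 1.49 ± 0.24 in the wild type (edgeR adjusted p = 0.000779) and had -0.69 ± 0.23 in bzip68 (edgeR adjusted p = 0.0912). The difference had an adjusted p of 0.745. Less firm were ATPMEPCRB, a pectin methylesterase, and RHS13. ATPMEPCRB fell by 1.62 ± 0.34 (edgeR adjusted p = 0.0119) and by 1.51 ± 0.35 (edgeR adjusted p = 0.0249), but had up to 0.0507 and 0.101 over the alternatives, the first without replicate 1 of H2O2 wild type and the second without the 2 libraries that stand apart, and in bzip68 it kept its call in 1 of the 6 fits without 1 library. RHS13 fell in bzip68 by 1.47 ± 0.37 (edgeR adjusted p = 0.0226), from 5.85, 13.1 and 5.85 CPM to 2.73, 4.24 and 1.92, and had 0.0906 without replicate 2 of mock bzip68, 0.0815 without replicate 1 and 0.123 without replicate 3 of H2O2 bzip68.

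Of 270 genes on 13 lists of pathways and cell markers 27 (10.0%) had a downstream peak, against 4.05% of all protein-coding genes. Covered starts were also more frequent on every list, from 1 of 7 root tissue markers to 15 of 24 photosynthesis genes. Over all protein-coding genes 3086 of 27444 had one, so a higher share on the lists is not particular to downstream peaks. The lists were drawn up with earlier results of these data known, and the shares were not tested. Immunity, jasmonate and ethylene genes held 8 of 29. These were PAD4 (score 198.77), SARD1 (186.52), NPR1 (156.8), EDS16, the salicylic acid synthesis gene ICS1 (117.73), ERF5 (106.82), WRKY53 (98.76), ERF4 (97.01) and AOS (62.22), and PAD4, NPR1, EDS16 and WRKY53 had a G-box near the centre. Growth hormone genes held 5 of 31, among them RGA1, a DELLA repressor of gibberellin responses (384.52), and PIN7, an auxin exporter (236.88). Abscisic acid, drought and cold genes held 4 of 27, namely CYP707A1 (241.33) and CYP707A3 (182.13), which break down abscisic acid, LTI78 and the phosphatase ABI2 (158.33).

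The bZIP list held 3 of 27, bZIP68, GBF6 (119.13) and ABF1, and the sugar list 2 of 12, DIN10 and ERD5, a proline dehydrogenase (105.3). Heat shock and folding genes held 2 of 21, HSC70-1 (139.96) and HSP81-2 (57.38). Light signalling held PIF4 (67.76) of 23, redox enzymes 2-Cys Prx B (118.53) of 24, and root tissue markers SHR (257.62) of 7. The lists of the circadian clock (17 genes), flavonoid synthesis (12), photosynthesis (24) and housekeeping (16) held none, while 9, 3, 15 and 4 of their genes had a peak that covers the start.

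All 27 were tested for expression. In the wild type H2O2 changed 4 of 27, beside 9.74% of all genes, with ABF1, DIN10 and PAD4 higher and WRKY53 lower. In bzip68 it changed 5 of 27, beside 7.39% of all genes, and all 5 were higher, beside 4.11%: ABF1, DIN10, CYP707A1, LTI78 and ERF5. PAD4, a lipase-like partner of EDS1 in defence, rose by 0.73 ± 0.17 (edgeR adjusted p = 0.0101), with 0.0548 without replicate 1 and 0.0631 without replicate 3 of mock wild type. WRKY53, a senescence regulator, fell by 1.09 ± 0.20 (edgeR adjusted p = 0.00244). It and ERF5, an ethylene response factor that rose in bzip68 by 1.04 ± 0.27 (edgeR adjusted p = 0.0276), were named after their values were seen, and ERF5 kept its call in 2 of the 6 fits without 1 library, with up to 0.175.

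CYP707A1 went from 5.23, 6.91 and 5.2 to 9.16, 10.9 and 13.5 CPM in bzip68, without overlap, and rose by 0.95 ± 0.20 (edgeR adjusted p = 0.00625). In the wild type it had 9.07, 8.26 and 11.3 in mock plants and 9.35, 9.87 and 8.12 under H2O2, which overlap. LTI78 rose in bzip68 by 0.86 ± 0.23 (edgeR adjusted p = 0.0372). With the replicate number as a block its adjusted p was 0.0666, and it kept its call in 1 of the 6 fits without 1 library, with up to 0.194. The other members of these lists, bZIP68 in the genotype contrasts aside, did not pass the test in any contrast.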

How the data were processed

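The peaks of the larger list, at p under 1e-05 with GFP-FLAG as the control per the file headers, carry the authors' deposited score, position and annotation. RNA values are the authors' deposited whole-number counts per gene, with no normalization (18430 genes). The submitters' processing notes name MACS 1.4.3 and ChIPseeker for the peaks' samples, TopHat2 2.1.0 and RSEM 2.1.30 for the RNA, and TAIR10 for both, with no roles. Of the per-sample columns, 12 matched the labels and 6 did not and were not used.

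Genes with enough counts (filterByExpr, 18205) were fitted together over 12 libraries with edgeR 4.0.16 (TMM, robust quasi-likelihood, 8 residual degrees of freedom, R 4.3.3), with DESeq2 1.42.0 and limma 3.58.1 as alternatives, and the fit was tested on simulated data. CPM are the counts scaled to TMM library sizes. The SE of a log2 fold change is the size of that change divided by the square root of its quasi-likelihood F value. Replicate numbers paired libraries only in the H2O2 contrast of bzip68, where same-numbered deviations correlated by 0.374, 0.487 and 0.178.

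Features and sequences are RefSeq's on TAIR10.1, which matched 1189 of 1199 peaks and had ATG at the coding start of 1140 of 1140 member transcripts. Without summits in the lists, the midpoint stands for the centre. Python 3.11.15 and pandas 2.3.3 were used. The peaks and lists were chosen with earlier results of these data known. Named genes were bZIP68, the 12 highest scores, all genotype calls, up to 4 per list by score, up to 6 genes with several peaks, and the 3 nearest to each limit. Added to these were up to 6 genes per direction and H2O2 contrast by size of change, taken only from genes with a symbol (at least 5 CPM, no overlap). Calls adjusted over a list alone were not made.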

Additional observations from a re-analysis of the deposited data

Results flagged for a closer look

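The larger peak list also holds 14 rows on organelle chromosomes. Of these 3, all on the chloroplast chromosome, are annotated to a promoter and begin downstream of the start, and they were left out because only nuclear rows were taken.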

How the results depend on the processing

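The 1199 peaks became 226 at a score of at least 300, 423 within 500 bp of the start, and 2717 when the centre rather than the edge had to lie downstream, which adds peaks that cover the start. The other thresholds left 851 to 1156. The 331 peaks with a G-box became 497 over the whole peak and 154 within 100 bp. The 90 peaks of the shorter list stayed at 88 to 90 in every alternative run. They score at least 302.63 and begin within 500 bp, so the limits on score and distance could not remove any.

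For mock plants the 3 genotype calls were 1 from the groups compared alone, 13 in DESeq2, 57 in limma, and 1 to 9 without 1 library. For H2O2 plants the 1 call was 3 from the groups compared alone, 5 in DESeq2, 2 in limma, 2 without the 2 libraries that stand apart, 2 with the replicate number as a block, and 1 to 2 without 1 library. The H2O2 calls were 176 (wild type) and 175 (bzip68) in limma, and 77 to 102 and 53 to 141 without 1 library. With the replicate block they were 131 and 112. The difference of responses had 0 to 1 calls without 1 library. Of these alternatives, shares over all genes are given only for DESeq2 and limma in mock plants, so the other counts have no background beside them. Causes were not tested. For 36 calls of named genes, 435 of 468 alternative values stayed past the threshold, 33 did not (24 of them without 1 library), and 0 changed sign. Apart from LTI78 the block changed none of these calls. Peak values have no replicates, and genes outside the count table were not tested.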
